A study of Homo sapiens with 6 samples.

Results

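Cancer-testis antigen genes are a set of germline genes, most of them on the X chromosome, that many tumours also transcribe. The set described here was drawn by symbol: genes of the MAGEA, MAGEB, MAGEC, GAGE, PAGE, XAGE and SSX families together with DDX53, DDX43, CTAG1A, CTAG1B, CTAG2, PRAME, CT45A1, SPANXB1, BRDT, TEX101 and SYCP1. Of the 57500 genes in the tables, 75 carried such a symbol, and 38 of these had reads in at least 3 of the 6 libraries and form the set. They were measured by polyA-selected RNA-seq in 22Rv1, a human cell line established from prostate cancer. The first group was a liver-metastasis-derived form of the line (liver-derived, 3 libraries), and the second was the control line, labelled wild type (parental, 3 libraries). Both groups were labelled as cell lines and had the same growth medium. The labels do not say how the metastasis was raised or whether the derived line is a single clone, nor whether the 3 libraries of a group came from separate cultures, so p-values measure the spread between these libraries. The title of the series concerns heterogeneity of prostate-specific membrane antigen in metastatic prostate cancer, and the comparison asks what differed in the liver-derived cells.

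As background, these genes are normally transcribed in testis and placenta and are kept silent in most other adult cells, in large part by DNA methylation of their promoters. Their proteins are seen by T cells and antibodies in patients, since germ cells present little antigen to the immune system. The MAGE proteins share a homology domain that binds RING-type ubiquitin ligases, and MAGE-A3 with its close relative MAGE-A6 directs the ligase TRIM28 to new substrates. SSX proteins carry repressor domains, PRAME is a leucine-rich adaptor of a cullin ligase, DDX53 is a DEAD-box RNA helicase and BRDT is the testis bromodomain protein.

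Upstream sequence is shown for 4 members that stand for the patterns below: DDX53 and PRAME, which were lower in the liver-derived cells, MAGEA3, which was higher, and MAGEA4, the member with the highest CPM, which did not pass. It is taken from the RefSeq promoter table (GRCh38.p14), is written 5′ to 3′ on the strand of the gene, and covers up to 250 bases before the RefSeq start, ending before the gene begins in the deposited coordinates. Capitals mark CGGAA and its reverse complement TTCCG, the core of many ETS factor motifs with a CpG in it, searched on both strands.
DDX53 (chrX:22999710-22999959, plus strand): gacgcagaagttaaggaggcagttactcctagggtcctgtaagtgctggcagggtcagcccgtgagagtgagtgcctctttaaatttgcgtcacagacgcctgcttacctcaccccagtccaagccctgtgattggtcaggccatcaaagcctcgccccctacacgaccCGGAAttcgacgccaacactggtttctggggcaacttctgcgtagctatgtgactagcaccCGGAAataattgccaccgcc
PRAME (chr22:22559362-22559515, minus strand): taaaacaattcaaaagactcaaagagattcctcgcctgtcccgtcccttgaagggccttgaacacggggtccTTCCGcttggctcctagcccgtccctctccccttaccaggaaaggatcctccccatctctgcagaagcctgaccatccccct
MAGEA3 (chrX:152698544-152698751, plus strand): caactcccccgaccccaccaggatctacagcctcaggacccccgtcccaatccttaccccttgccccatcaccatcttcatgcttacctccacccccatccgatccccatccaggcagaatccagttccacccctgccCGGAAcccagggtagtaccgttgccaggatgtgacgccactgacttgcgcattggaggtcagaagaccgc
MAGEA4 (chrX:151912224-151912473, plus strand): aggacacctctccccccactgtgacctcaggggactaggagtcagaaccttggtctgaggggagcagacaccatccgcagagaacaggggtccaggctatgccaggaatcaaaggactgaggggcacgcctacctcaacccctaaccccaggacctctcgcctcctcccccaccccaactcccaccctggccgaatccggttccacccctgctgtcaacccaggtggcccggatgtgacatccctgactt
The DDX53 stretch held the 5-base motif in 2 places and 12 CG dinucleotides. The MAGEA4 stretch held neither CGGAA nor TTCCG, and 6 CG dinucleotides. Other forms of the ETS core were not searched, so a stretch without a marked motif may still hold one. Over the whole 250 bases, MAGEA3 and MAGEA6 were identical at 250 of 250 positions. In all, 29 of the 38 members had an entry in the table, and 10 of these 29 (34.5%) held the motif within 250 bases, against 30.3% of 35116 promoters. Their median was 9 CG dinucleotides, with a range of 3 to 18, against a median of 11 over all promoters. The windows of MAGEA11, which held the 18, GAGE1 and XAGE1B lie inside the gene in the deposited coordinates. Identical windows of close copies, such as MAGEA3 and MAGEA6, were counted for each gene. A match is a string of letters only, and neither the motif nor the CG count was measured for binding or methylation here.

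Library totals ran from 28395265 to 53275252 counts. Of 6 prostate markers tested, 1 was higher in the liver-derived cells, 4 were lower, FOLH1, HOXB13 and KLK3 among them, and FOXA1 did not pass. Of the hepatocyte markers, SERPINA1, TTR and CYP3A4 stayed at or under 0.182 CPM in both groups, while ALB was higher, at 65.8 CPM in liver-derived and 47.7 CPM in parental cells, APOA1 was higher, at 0.628 CPM in liver-derived and 0.184 CPM in parental cells, and ASGR1 was lower in the liver-derived cells; their part in the results below was not tested. The germ cell markers DAZL, PRM1 and TNP1 had no read in any library and DDX4 none in the liver-derived ones. Within the parental group, replicate 2 was unlike the others, with a chi-square per degree of freedom of 55.7 and 62.7 over genes against 2.26 between parental replicates 1 and 3 and 2.43 to 3.15 among the liver-derived libraries. Where stated below, results are given without it as well, and all others include it.

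The cancer-testis genes with the most reads, led by MAGEA4, MAGEA3, CTAG2 and MAGEA1, kept close levels in both groups, with CTAG2, at 1.36-fold lower in the liver-derived cells, the most changed of these 4. Among the members of lower abundance, DDX53, CT45A1, SSX9, PRAME, SSX3, CTAG1B, MAGEA8 and MAGEC2 were at least 2-fold lower in the liver-derived cells, and 9 did not pass (PAGE5, MAGEA2, MAGEB2, SSX2, MAGEA2B, MAGEA11, SSX1, CTAG1A and SSX2B). The sum over all 38 members was 874 ± 7.41 CPM in liver-derived and 957 ± 68.4 CPM in parental cells (SD, n = 3 each). The 6 genes with the highest levels held 95.8 to 96.9% of the members' reads in the liver-derived libraries and 89.4 to 91.1% in the parental ones. In bulk RNA, fewer cells that carry a transcript and less of it per cell cannot be told apart.

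After a filter on low counts, 23 of the 38 members were tested with edgeR's quasi-likelihood test among 19255 genes. At an adjusted p under 0.05, 1 was higher, 10 were lower and 12 did not pass. Over all genes tested, 17.5% were higher, 21.3% lower and 38.8% called in either direction. Of the tested members, 8 were lower by at least 2-fold and 5 by at least 4-fold, against 9.32% and 3.75% of all genes tested; none was higher by 2-fold, against 4.49%. The median log2 fold change of the tested members was -0.23, beside -0.0075 for all genes. The filter bears on these counts, since 6 members (DDX53, CT45A1, CTAG1A, SSX2B, MAGEA8 and MAGEC2) passed it through the parental libraries alone, and 4 of those 6 were among the lower ones. Of the 17 that reached the filter in both groups, 1 was higher, 6 were lower and 10 did not pass, with a median of -0.05; 4 were lower by at least 2-fold and 1 by at least 4-fold. The groups did not overlap in CPM for 11 members on the lower side and 3 on the higher side, where 27.9% and 26.1% of all genes did so. Among the 17 that reached the filter in both groups, 6 lay apart on the lower side and 3 on the higher side. Chromosome X, which holds 36 of the 38 members, had 656 genes tested, of which 66 (10.1%) were higher and 188 (28.7%) lower. Without parental replicate 2, 13 of the 23 tested members were called, when 11870 of 19864 genes tested were called in all.

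**Figure D1:**
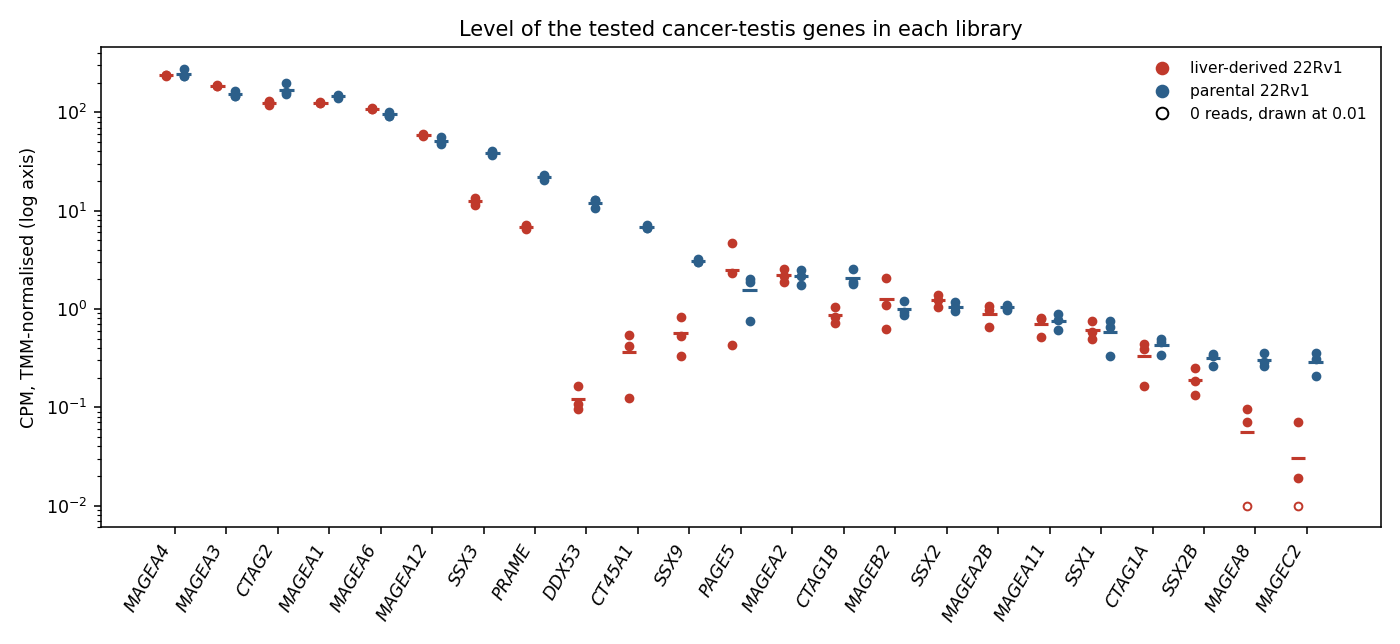
CPM (TMM-normalised counts scaled to library size, log axis) of the 23 tested members in each library, with liver-derived points left of parental points and short lines at the group means; open points mark 0 reads. The 6 most abundant genes lie close together in both groups, while SSX3, PRAME, DDX53, CT45A1 and SSX9 are lower in all 3 liver-derived libraries.

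The MAGE-A genes, whose proteins adapt ubiquitin ligases, made up most of the cancer-testis RNA. Their 10 members summed to 728, 716 and 719 CPM in the liver-derived libraries and 671, 749 and 668 CPM in the parental ones; the groups overlapped through parental replicate 2 alone, and the other parental sums lay below all liver-derived ones. Of the 9 tested, 1 was higher, 2 were lower and 6 did not pass, beside 17.5% higher and 21.3% lower over all genes. On the length-corrected TPM scale, MAGEA3 averaged 364 TPM in liver-derived and 307 TPM in parental cells, above 97.9% and 97.4% of protein-coding genes. MAGEA4 stood at 273 and 290 TPM and MAGEA1 at 256 and 306 TPM in liver-derived and parental cells, in that order. These are levels that few protein-coding genes exceeded in either group.

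MAGEA3 (ENSG00000221867; chromosome X, 152698752 to 152702347, GRCh38) was the member called higher. It had 191, 183 and 183 CPM in the liver-derived libraries and 146, 164 and 147 CPM in the parental ones. All liver-derived values lay above all parental values, with a log2 fold change of 0.28 and an SE of 0.07 (edgeR adjusted p = 0.0122). The call did not hold without liver-derived replicate 1 (edgeR adjusted p = 0.0705) or without parental replicate 1 (edgeR adjusted p = 0.0554). MAGEA6, its near-copy on the opposite strand of the same cluster, had 110, 107 and 109 CPM in liver-derived and 92.4, 101 and 91.3 CPM in parental libraries. Again the groups did not overlap, but the edgeR adjusted p was 0.056 for a log2 fold change of 0.19. Without parental replicate 2 it was 2.2e-09 for 0.24, in a setting that called 11870 of 19864 genes tested. MAGEA6 was past the threshold under 10 of the 19 alternatives run for it. MAGEA3 and MAGEA6 share 27.9% of their 150-base stretches exactly, and their summed counts gave a log2 fold change of 0.25 (edgeR adjusted p = 0.0186).

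MAGEA12 had 58.8, 60.2 and 57.5 CPM in the liver-derived libraries and 47.9, 55.8 and 50.1 CPM in the parental ones. These groups, too, were apart, and the log2 fold change of 0.20 did not pass (edgeR adjusted p = 0.0779), whereas without parental replicate 2 it was 0.26 (edgeR adjusted p = 1.6e-07). MAGEA12 was past the threshold under 2 of the 19 alternatives run for it. It overlaps CSAG4 by 33 exon bases on the same strand, and CSAG4 had 42 to 58 reads in the liver-derived and 84 to 94 in the parental libraries. MAGEA4 (ENSG00000147381), the member with the highest CPM, had 242, 235 and 241 CPM in liver-derived and 234, 274 and 235 CPM in parental libraries. Its groups overlapped through parental replicate 2 alone, with a log2 fold change of -0.05 (SE 0.08, edgeR adjusted p = 0.65), and without that library the log2 fold change was 0.029 (edgeR adjusted p = 0.269). An antisense transcript, AF274855.1, overlaps 172 of its exon bases and had 104 to 156 reads in the liver-derived and 142 to 199 in the parental libraries.

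MAGEA1 (ENSG00000198681), the gene that gave the family its name as the first human tumour antigen recognised by T cells, went the other way by a small amount. It had 123, 126 and 125 CPM in liver-derived libraries and 145, 149 and 141 CPM in parental ones. The 2 groups did not overlap and the log2 fold change was -0.22 (SE 0.06, edgeR adjusted p = 0.0228). That call was lost when any liver-derived library or parental replicate 1 was left out, with edgeR adjusted p-values of 0.0637 to 0.117 at log2 fold changes of -0.21 to -0.22. MAGEA8 was near the limit of detection, with 5, 2 and 0 reads in the liver-derived and 14, 12 and 19 reads in the parental libraries. Its fitted log2 fold change was -2.43 (SE 0.63, edgeR adjusted p = 0.0137), and the groups were apart.

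MAGEA2 and MAGEA2B are an inverted pair whose transcripts share 97.8% and 100% of 150-base stretches, so the split of reads between them is uncertain. MAGEA2 had 2.57, 2.18 and 1.89 CPM in liver-derived and 2.49, 2.18 and 1.74 CPM in parental libraries, with a log2 fold change of 0.06. MAGEA2B had 0.651, 0.966 and 1.07 CPM in liver-derived and 1.03, 1.10 and 0.986 CPM in parental libraries (-0.23). The groups overlapped for each gene and for both together, whose summed counts gave -0.03. MAGEA11 averaged 0.702 ± 0.162 CPM in liver-derived and 0.754 ± 0.14 CPM in parental cells (SD, n = 3 each), and its fitted change of -0.11 did not pass.

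**Figure D2:**
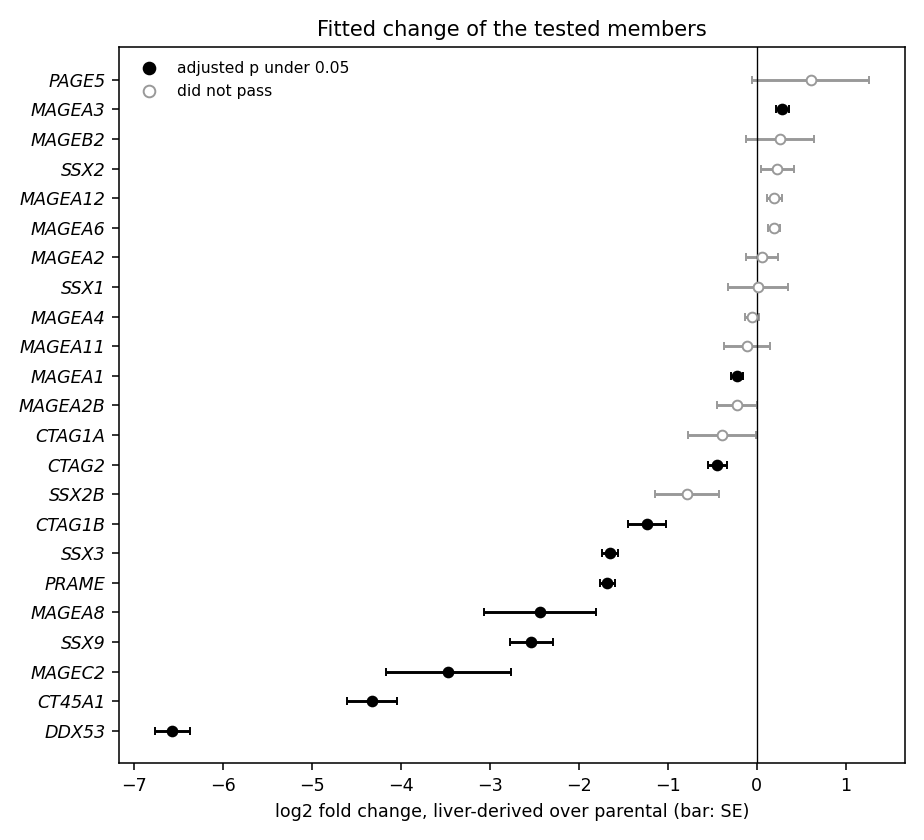
Fitted log2 fold change (liver-derived over parental) with its SE for the 23 tested members, sorted by size; filled points have an edgeR adjusted p under 0.05. The MAGE-A genes other than MAGEA8 lie between -0.23 and 0.28, and DDX53 (-6.56) and CT45A1 (-4.32) lie farthest below zero.

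Among MAGE-B and MAGE-C genes, MAGEC2, which pairs with TRIM28 in a ubiquitin ligase, was all but absent from the liver-derived libraries. It had 1, 2 and 0 reads there and 15, 16 and 11 reads in the parental libraries. With so few reads the pooled ratio, 12.3-fold lower, has a 95% counting interval of 3.93 to 62.0, and the edgeR adjusted p was 0.0041. MAGEB2 had 1.09, 2.08 and 0.618 CPM in liver-derived and 1.19, 0.859 and 0.929 CPM in parental libraries. The liver-derived libraries spanned the parental range on both sides, and the log2 fold change of 0.26 did not pass; without liver-derived replicate 2 it was -0.20.

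The CTAG genes encode NY-ESO-1 (CTAG1A and CTAG1B, an identical pair of proteins) and its homolog LAGE-1 (CTAG2), an antigen family pursued in T cell therapy. CTAG2 (ENSG00000126890; chromosome X, 154651972 to 154653579) had the highest TPM of all members, 443 ± 18.6 in liver-derived and 617 ± 62.7 in parental cells (SD, n = 3 each). In CPM it stood at 126, 119 and 131 in liver-derived libraries and at 160, 199 and 152 in parental ones. Every liver-derived value lay below every parental value, and the log2 fold change was -0.44 (SE 0.10, edgeR adjusted p = 0.00915). Without liver-derived replicate 2 the edgeR adjusted p was 0.0535 at -0.39. CTAG1B, at a far lower level, had 1.05, 0.823 and 0.721 CPM in liver-derived and 1.79, 2.53 and 1.86 CPM in parental libraries. Its groups were apart as well, at a log2 fold change of -1.23 (SE 0.21, edgeR adjusted p = 0.00183). CTAG1A, which shares 76.8% of its 150-base stretches with CTAG1B, averaged 0.333 ± 0.148 CPM in liver-derived and 0.433 ± 0.0807 CPM in parental cells (SD, n = 3 each) and did not pass, while the counts of both genes together gave -1.05 (edgeR adjusted p = 0.00472).

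SSX genes, known in synovial sarcoma as fusion partners of SS18, showed 1 prominent member, SSX3. SSX3 (ENSG00000165584; chromosome X, 48346428 to 48356707) had 12.3, 13.4 and 11.5 CPM in the liver-derived libraries and 40.1, 36.6 and 39.9 CPM in the parental ones. The groups were far apart, at a log2 fold change of -1.65 (SE 0.09, edgeR adjusted p = 1.4e-06), or 3.14-fold lower. SSX9, annotated as a transcribed pseudogene in the same cluster, had 0.536, 0.823 and 0.33 CPM in liver-derived and 3.25, 3.02 and 2.98 CPM in parental libraries. It was 5.79-fold lower, without overlap (log2 fold change -2.53, SE 0.24, edgeR adjusted p = 5.0e-05). Neither gene shares a 150-base stretch with another gene. SSX1, farther along the same cluster, averaged 0.609 ± 0.13 CPM in liver-derived and 0.583 ± 0.224 CPM in parental cells (SD, n = 3 each) and did not pass.

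SSX2 and SSX2B are copies with all 150-base stretches in common. SSX2 had 1.25, 1.04 and 1.40 CPM in liver-derived and 1.05, 0.947 and 1.18 CPM in parental libraries. Those ranges overlapped, and so did not separate the groups (log2 fold change 0.23). SSX2B averaged 0.19 ± 0.0584 CPM in liver-derived and 0.315 ± 0.0443 CPM in parental cells (SD, n = 3 each), a fitted -0.79 that did not pass. The summed counts of the pair gave a log2 fold change of 0.05.

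DDX53, the DEAD-box helicase also called CAGE, showed the widest gap of all members. DDX53 (ENSG00000184735; chromosome X, 22999961 to 23003589, plus strand) had 5, 3 and 8 reads in the liver-derived libraries, or 0.0957, 0.107 and 0.165 CPM. The parental libraries had 617, 479 and 674 reads, or 12.7, 10.6 and 12.8 CPM. The fitted log2 fold change was -6.56 (SE 0.20, edgeR adjusted p = 5.4e-08), or 94.7-fold lower, and no transcript stretch of the gene was shared. DDX53 lies within PTCHD1-AS on the opposite strand without exon overlap, and PTCHD1-AS had 15 to 29 reads in the liver-derived and 16 to 30 in the parental libraries.

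PRAME (ENSG00000185686; chromosome 22, 22547701 to 22559361, minus strand), a leucine-rich adaptor that represses retinoic acid receptor signalling, is 1 of only 2 members off the X chromosome. It had 7.16, 6.44 and 7.003 CPM in the liver-derived libraries and 20.6, 22.7 and 22.9 CPM in the parental ones. The 3.20-fold lower level had a log2 fold change of -1.68 (SE 0.09, edgeR adjusted p = 1.1e-06), with the groups far apart. The other member off the X chromosome, BRDT on chromosome 1, had 1 read over the liver-derived and 11 over the parental libraries and was not tested.

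CT45A1 belongs to a tandem family on Xq with near-identical copies, and its name stands here for reads that could come from several of them. CT45A1 (ENSG00000268940) had 0.421, 0.537 and 0.124 CPM in liver-derived and 6.59, 6.70 and 7.11 CPM in parental libraries. It was 20.0-fold lower (log2 fold change -4.32, SE 0.28, edgeR adjusted p = 4.1e-06), and within the liver-derived cells it varied 4.34-fold between libraries. It shares 77.7% of its 150-base stretches with CT45A3, which was lower too (log2 fold change -3.76). CT45A5 was lower (-2.67), whereas CT45A10 (0.924 ± 0.32 CPM in liver-derived and 0.794 ± 0.186 CPM in parental cells, SD, n = 3 each) did not pass.

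The GAGE, PAGE and XAGE families contributed few reads. PAGE5 had 2.34, 4.72 and 0.433 CPM in the liver-derived libraries and 2.00, 1.89 and 0.758 CPM in the parental ones. The liver-derived libraries differed 10.9-fold among themselves, more than the groups did, and the log2 fold change of 0.61 did not pass (edgeR adjusted p = 0.508); it was -0.12 without liver-derived replicate 2, and with no filter on low counts it was 0.58 and passed (edgeR adjusted p = 0.0132). In both groups the third library was the lowest for PAGE5. Over the 14 tested members under 10 CPM, liver-derived replicate 3 was the lowest liver-derived library for 10, and over all 23 for 13. Parental replicate 3 was the lowest parental library for 8 of those 14 and for 11 of all 23. Neither pattern was tested.

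The 15 members that were not tested had at most 11 reads in any library and together 54 reads in the liver-derived and 111 in the parental libraries. Of these, 12 had more parental reads, 2 more liver-derived reads and 1 the same number. These reads are not scaled to library size, and liver-derived replicate 2 was the smallest library, with 28395265 counts. A like share over all genes is not given. XAGE5 had none in the liver-derived libraries and 7, 2 and 5 in the parental ones. This is at least 4.09-fold lower against a floor of 3 reads over the group. The exact 95% counting interval of the ratio, which also covers the error of the parental reads, starts at 2.91. XAGE5 and XAGE1A entered the set through the parental libraries alone, so the direction was fixed in advance for both. SSX6, a transcribed pseudogene, had 1 read over the liver-derived and 12 over the parental libraries, a ratio of 10.5 with a 95% counting interval of 1.56 to 450.1. PAGE1 ran the other way, with 6, 1 and 11 reads in liver-derived and 0, 3 and 2 in parental libraries. The rest (GAGE1, GAGE2A, PAGE4, MAGEA10, MAGEB17, SSX4, SSX7, XAGE1A, XAGE1B, XAGE2 and XAGE3) had 11 or fewer reads per group. At the edge of the set, GAGE1 had 1, 0 and 0 reads in the liver-derived and 0, 1 and 2 in the parental libraries, and was kept. Below that edge were 37 symbols, 23 of them without a read in any library, among them SPANXB1, TEX101 and MAGEC3, and 14 with reads in 1 or 2 libraries and at most 3 reads in any of them.

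Close copies matter for reading these values, because a read that matches 2 genes equally may be dropped or split. Of the 38 members, 10 shared over 50% of their 150-base stretches with another gene in GENCODE 29 transcripts, and 21 shared none. The members without any shared stretch include MAGEA4, MAGEA1, MAGEA12, SSX3, SSX9, PRAME, DDX53, MAGEA8 and MAGEC2. Among the 37 symbols below the read minimum, 13 shared over 50% of their stretches, so a low count of those need not mean a low transcript level.

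**Figure D3:**
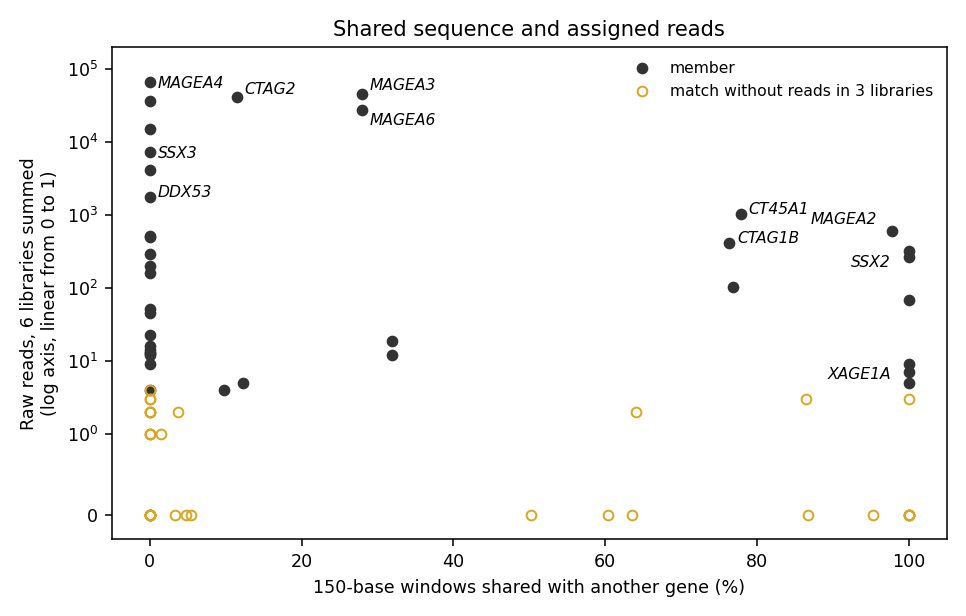
Share of 150-base transcript windows found in another gene (%, horizontal) against raw reads summed over the 6 libraries (log axis, linear from 0 to 1) for members (filled) and for matching symbols without reads in 3 libraries (open). DDX53, SSX3 and MAGEA4 share no window, whereas MAGEA2, SSX2 and XAGE1A lie at or near 100%.

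Other genes of the same biology were read from lists written from general knowledge. Of 111 further cancer-testis genes, 51 were tested, of which 7 were higher (13.7%), 19 lower (37.3%) and 25 not passed. Over all genes, 17.5% were higher and 21.3% lower. The median log2 fold change of the list was -0.26, beside -0.0075 for all genes. A gene could pass the low-count filter through the parental libraries alone, and a recount is not given for this list. TMEFF2, a transmembrane protein rich in prostate and brain, stood at 14.4, 15.6 and 15.0 CPM in liver-derived and 135, 153 and 139 CPM in parental libraries (log2 fold change -3.25). VCX3A, from an X-linked family of close copies, averaged 0.725 ± 0.103 CPM in liver-derived and 3.88 ± 0.712 CPM in parental cells (SD, n = 3 each), which is a log2 fold change of -2.38. DSCR8 went up, with 4.84, 6.01 and 5.03 CPM in liver-derived and 0.926, 0.926 and 0.929 CPM in parental libraries (edgeR adjusted p = 1.5e-06). The set thus held genes that moved in both directions. All 3 named ones were without overlap between groups, which their choice by size among called genes makes likely. Over all genes tested, 54% had no overlap. CTCFL, the testis paralog of CTCF, had no read in any library.

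Genes of germ cell development, piRNA silencing and meiosis were for the most part lower among those tested. Of 66 listed, 64 were found and 33 were tested, with 1 higher (3.03%), 20 lower (60.6%) and 12 not passed (median -0.70), beside 17.5% higher and 21.3% lower over all genes. MAEL, a piRNA pathway factor, had 0.306, 0.43 and 0.185 CPM in liver-derived and 10.1, 10.9 and 11.2 CPM in parental libraries (log2 fold change -5.20). TDRD9, an RNA helicase of the same pathway, had 4.84, 5.94 and 5.23 CPM in liver-derived and 30.9, 28.3 and 32.8 CPM in parental libraries (-2.53). SYCP3, a lateral element of the synaptonemal complex, averaged 0.455 ± 0.324 CPM in liver-derived and 2.10 ± 0.397 CPM in parental cells (SD, n = 3 each), which is a log2 fold change of -2.12. DPEP3, a testis membrane dipeptidase, had 1 read over the liver-derived and 469 over the parental libraries, a pooled ratio of 411 with a 95% counting interval of 73.5 to 16287. In these 4 genes no liver-derived library reached a parental one, which their choice by size among called genes makes likely. The filter on low counts bears on the shares of this list as well. DPEP3, for one, passed it through the parental libraries alone. A recount for genes that reached the filter in both groups is not given for this list.

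The type II MAGE genes are relatives of the cancer-testis MAGE genes that are transcribed in many normal tissues. Of 12 listed, 9 were tested, with 6 lower and 3 not passed (median -0.55), beside 21.3% lower and 17.5% higher over all genes. By edgeR, DESeq2 or limma-voom, 0 were higher, also at an unadjusted p under 0.05. NDN, which encodes necdin, had 1.19, 1.25 and 1.05 CPM in liver-derived and 10.1, 10.5 and 9.84 CPM in parental libraries (log2 fold change -3.13). MAGEL2, its imprinted neighbour on chromosome 15 and a partner of TRIM27, averaged 0.106 ± 0.0638 CPM in liver-derived and 1.09 ± 0.372 CPM in parental cells (SD, n = 3 each), which is a log2 fold change of -3.49. MAGEF1, with 62.0 ± 1.36 CPM in liver-derived and 114 ± 5.97 CPM in parental cells (-0.88), and MAGEH1 (-0.68) were lower by smaller amounts. All 4 had lower levels in the liver-derived cells than in the parental cells. MAGEL2 passed the filter on low counts through the parental libraries alone, so the filter bears on this list too.

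**Figure D4:**
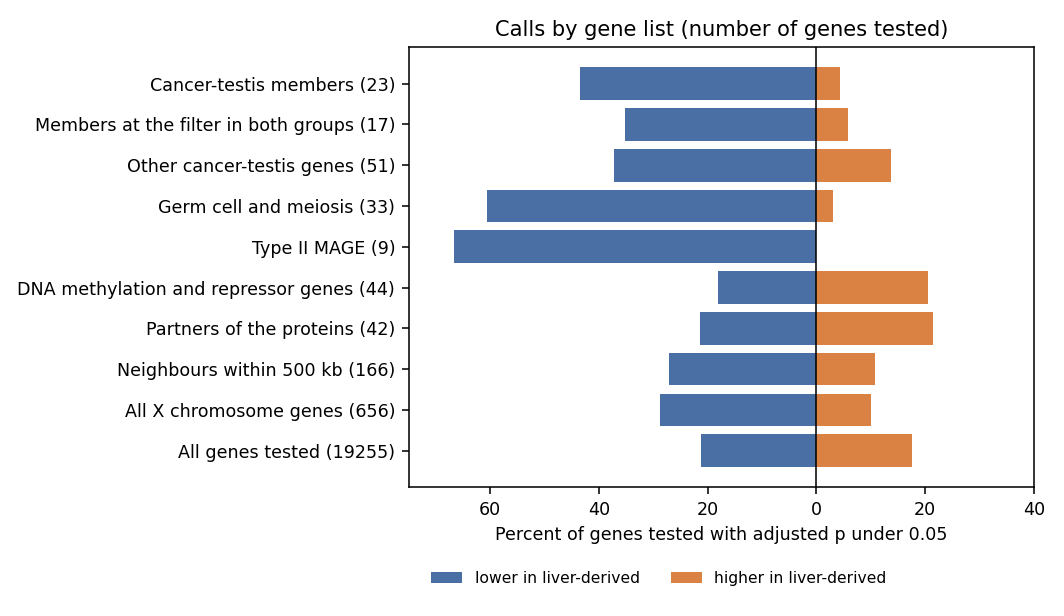
Percent of tested genes called lower (left of zero) and higher (right of zero) in liver-derived cells, for the members, the gene lists, the neighbours, chromosome X and all genes, with the number tested in parentheses. Lower calls take 60.6% of the germ cell and meiosis genes and 66.7% of the type II MAGE genes, against 21.3% of all genes tested. These are shares of the genes tested, and a gene could pass the low-count filter through the parental libraries alone.

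Genes of the machinery that writes, reads or removes DNA methylation and of repressor complexes at germline genes were split between directions. Of 44 tested, 9 were higher (20.5%), 8 lower (18.2%) and 27 not passed (median 0.03), near the shares over all genes of 17.5% and 21.3%. Without parental replicate 2, 19 were higher and 16 lower, when 11870 of 19864 genes tested were called in all, and without liver-derived replicate 2, 5 were lower. TET1, which oxidises methylcytosine, had 1.90, 1.97 and 2.04 CPM in liver-derived and 4.43, 3.15 and 3.96 CPM in parental libraries (log2 fold change -0.97). YAF2 and PCGF6, subunits of variant Polycomb complexes, averaged 20.8 ± 0.48 and 36.9 ± 0.879 CPM in liver-derived and 12.7 ± 2.32 and 26.6 ± 3.04 CPM in parental cells (SD, n = 3 each), log2 fold changes of 0.70 and 0.47. FAM208A, or TASOR, of the HUSH silencing complex was lower (-0.49). No gene of this list changed by 2-fold, and DNMT1, named for its role in keeping methylation through division, did not pass, at 349.7 ± 4.29 CPM in liver-derived and 345 ± 31.4 CPM in parental cells (SD, n = 3 each).

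Genes listed from general knowledge as partners of cancer-testis proteins were likewise split. Of 42 tested, 9 were higher, 9 lower and 24 not passed (21.4% in each direction, median -0.0008). These shares were near those over all genes, 17.5% higher and 21.3% lower. Leaving out parental replicate 2 gave 17 higher and 15 lower, when 11870 of 19864 genes tested were called in all. Binding was not measured here. TRIM28, the ligase of MAGE-A3, MAGE-A6 and MAGE-C2, had 749, 759 and 778 CPM in liver-derived and 777, 1001 and 741 CPM in parental libraries and did not pass. PRKAA1 and PRKAA2 encode the catalytic subunits of AMPK, of which the PRKAA1 product is a substrate of the MAGE-A3 and TRIM28 ligase. PRKAA2 had 44.9, 48.2 and 48.5 CPM in liver-derived and 21.1, 12.9 and 21.8 CPM in parental libraries (log2 fold change 1.34), and PRKAA1 was higher by 0.65, named after its value was seen. LY6E, a lipid-anchored surface protein, averaged 1.61 ± 0.255 CPM in liver-derived and 11.6 ± 1.36 CPM in parental cells (SD, n = 3 each), which is a log2 fold change of -2.86. AMACR, a racemase used as a prostate cancer stain (-1.15), and PLCD3, a phospholipase C (-1.10), were lower too. For none of the 4 genes taken by size did the groups overlap, which their choice among called genes makes likely. Over all genes tested, the groups did not overlap for 54%.

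The genes that surround the members did not simply follow them. Within 500 kb of a member lay 166 tested genes that are not members, of which 18 were higher (10.8%), 45 lower (27.1%) and 103 not passed, close to the 10.1% and 28.7% of all tested X genes (median -0.12, beside -0.12 for those). Without parental replicate 2, 33 of the neighbours were higher, when 11870 of 19864 genes tested were called in all. The neighbours include relatives of the members, such as CT45A3 and MAGEH1. The 8 near BRDT and the 14 near PRAME are not on chromosome X. Next to DDX53, at 72169 bases, FAM3C2 averaged 15.9 ± 1.14 CPM in liver-derived and 6.13 ± 1.13 CPM in parental cells (SD, n = 3 each), a rise of 1.37 on the log2 scale, and PTCHD1, at 330426 bases, was lower by a log2 fold change of -1.54. Around CT45A1, 13 neighbours were tested, with 2 higher, 2 lower and a median of 0.08. The lower ones were CT45A3 and CT45A5, which passed the low-count filter through the parental libraries alone. Near PRAME, 2 of 14 were higher and 3 lower (median -0.36). Over all genes tested, 17.5% were higher and 21.3% lower.

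MAGEA1, itself changed by a log2 fold change of only -0.22, lay among genes that changed much more. Of its 14 nearest tested neighbours, 10 were lower and 1 was higher, with a median of -1.07. Over all genes tested, 21.3% were lower and 17.5% higher. Among the lower neighbours, ATP2B3, PNMA3, PNMA5, PNMA6A and PNMA6B passed the low-count filter through the parental libraries alone, which favours a lower call. A recount without these genes is not given. ATP2B3, a calcium pump 333796 bases away, had 0.053 ± 0.046 CPM in liver-derived and 1.53 ± 0.178 CPM in parental cells (SD, n = 3 each), which is a log2 fold change of -4.57. DUSP9, a MAP kinase phosphatase, averaged 5.60 ± 0.267 CPM in liver-derived and 18.5 ± 3.32 CPM in parental cells (SD, n = 3 each), which is a log2 fold change of -1.73. The neighbour called higher was PNMA6E (1.29), named because it was the only one.

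**Figure D5:**
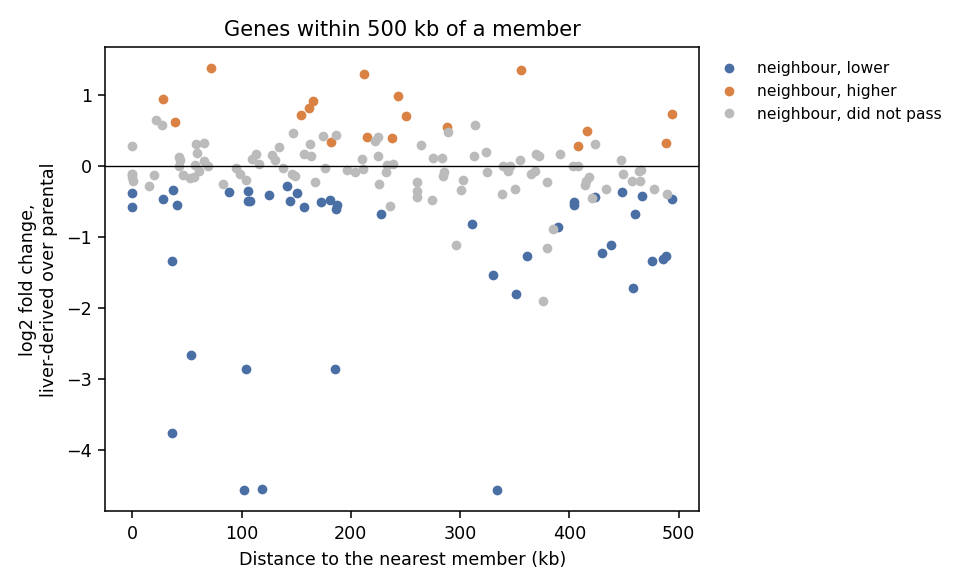
Log2 fold change (liver-derived over parental) of 166 tested genes within 500 kb of a member against the distance to the nearest member in kb; blue points were called lower, orange points higher and grey points did not pass. Lower calls (27.1%) and higher calls (10.8%) stand beside 28.7% and 10.1% of all tested X genes, and all 7 changes below -2 lie near CT45A1 or MAGEA1. Those 7 genes passed the low-count filter through the parental libraries alone.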

How the data were processed

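PolyA-selected RNA-seq libraries were analysed for 3 liver-derived and 3 parental samples, grouped by their titles. The submitters' processing notes list Trimmomatic 0.36, STAR 2.5.2b, featureCounts, Subread 1.5.2 and the build GRCh38. Settings for strand and for reads that match several genes are not given in the sources read here, so reads of overlapping genes and close copies may be split or lost. The authors deposited raw counts per gene as whole numbers, and a table of TPM values that equal, within a relative difference of 1e-04, those computed from the counts and gene lengths. Rows of that table without a gene (391182) were left out. A further condition in the design text was not analysed here. Some prostate markers are not reported here.

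Counts were filtered (filterByExpr, minimum count 10), scaled by TMM and tested with edgeR 4.0.16 in R 4.3.3 (robust quasi-likelihood, no covariate beside group). Benjamini-Hochberg adjustment ran over 19255 genes, with a threshold of 0.05. CPM values are TMM-normalised, and TPM is used where levels of different genes are set side by side. SE is that of the fitted log2 fold change. Intervals for pooled reads are exact at 95% and, like floors, cover counting error only. The members, the lists and the alternatives were chosen with earlier results of these data known. Named were all members and, from each list and the neighbours, the called genes of largest change whose higher group averaged at least 1 CPM, up to 4, unless stated otherwise. Shared 150-base windows came from GENCODE 29 transcripts. The edgeR step was tested on simulated data. Alternatives were other scalings and filters, DESeq2 1.42.0, limma-voom and limma 3.58.1 on log2(TPM + 1), each library left out, both second replicates left out, a replicate block, glmTreat, and counts of close relatives summed (near-identical copies and, in SSX, related genes).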

Additional observations from a re-analysis of the deposited data

How the results depend on the processing

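CT45A1, CTAG1B, DDX53, PRAME, SSX3 and SSX9 were lower and past the threshold under all 19 alternatives run for them (glmTreat is given as counts). MAGEA8 and MAGEC2 were so under all 16 run for them, and the stricter level filters of the rest removed both. DDX53, CT45A1, MAGEA8 and MAGEC2 passed the main filter through the parental libraries alone. Their few liver-derived reads are the same in every setting. The number of members called higher was 1, and became 2 with RLE factors, no filter, CPM of at least 1, DESeq2, limma-voom and all 3 TPM settings, 3 without both second replicates, and 0 by edgeR's glmTreat against a log2 fold change of 1 (0 at an unadjusted p under 0.05), which called 6 lower in place of 10. Leaving out 1 library gave 0 to 3 higher and 8 to 10 lower by edgeR; the 0, without liver-derived or parental replicate 1, was 1 at an unadjusted p under 0.05. The median of the tested members was -0.58 with no filter, where all 38 members entered. Among the other cancer-testis genes, 12 were lower at CPM of at least 1. Among germ cell genes, 12 were lower on log2(TPM + 1) and log2(TPM + 0.1), where fewer genes were tested, and 2 were higher without both second replicates (1 to 2 with 1 library left out). Without both second replicates, 16 listed partners were higher and 15 lower, 20 methylation and repressor genes higher and 15 lower, and 31 neighbours higher. In that setting 11677 of 19550 genes tested were called in all. With 1 library left out, the ranges were 7 to 17 and 7 to 15 for partners, 6 to 19 and 5 to 16 for repressors, and 12 to 33 for neighbours higher; each highest value was without parental replicate 2, when 11870 genes were called. With no filter on log2(TPM + 1), 5 partners, 5 repressors and 11 neighbours were higher.

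Signs turned only in members that did not pass. SSX1 was -0.043 by library size alone, -0.39 without both second replicates, -0.26 to 0.25 with 1 library left out and -1.60 when summed with SSX3, SSX5, SSX7 and SSX8, a sum that SSX3 dominates. MAGEA2 was -0.029 when summed with MAGEA2B and -0.076 to 0.18 with 1 library left out; SSX2B was 0.055 when summed with SSX2. MAGEA4 was 0.053 without both second replicates, and MAGEB2 was -0.29. With 1 library left out, MAGEA4 ran from -0.094 to 0.029, MAGEB2 from -0.20 to 0.61, MAGEA11 from -0.25 to 0.085 and PAGE5 from -0.12 to 1.15. The causes were not tested.

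Same-numbered samples did not deviate together (correlations -0.0084, 0.0092 and 0.072), so the numbers were not taken as pairs; with the replicate block 10 members were called, and MAGEA1 no longer passed (edgeR adjusted p = 0.0712 at -0.22). Values below about 1 CPM rest on few reads.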
